A study of Homo sapiens with 4 samples.

Results

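The genes described here are 36 genes of glycolysis and of the response to low oxygen, measured in LN-229 cells, a long-established line from a human glioblastoma. They were found through every probe set whose only gene symbol in the platform annotation is one of the 36 symbols. This gave 84 probe sets, 3 of them control sets for GAPDH, and the other 81 read 33 of the 36 genes, out of 19775 genes with a named probe set on the array. SLC16A1, SLC16A3 and CA9 were not analysed here. The study has 4 Affymetrix 3' expression arrays. In 2 of them the cells had received doxycycline (Doxocyclin in the labels) for 48 h to express WIF1, a secreted WNT inhibitor, and the other 2 came from non-induced control cells of the same line given no treatment. Per the labels, both replicates of a group are biological ones. The inducible construct and the clone are not given in the sources used here, and no array had doxycycline without WIF1, so that the drug and the induced protein cannot be told apart.

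Glycolysis splits glucose into pyruvate in the cytosol and yields ATP without oxygen, and lactate dehydrogenase then turns pyruvate into lactate. When oxygen is low, the alpha subunits HIF1A and EPAS1 (HIF-2 alpha) escape hydroxylation by the EGLN prolyl hydroxylases, pair with ARNT and bind a short motif in the promoters and enhancers of their targets. Those targets include most glycolytic enzymes and glucose transporters, and glioblastomas are known for high glucose uptake and for hypoxic regions. Because HIF alpha is controlled mainly at the protein level, its mRNA alone does not report its activity.

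In the arrays labelled as WIF1-induced, the mRNA of these genes stayed within narrow bounds of the controls. A gene is given below by its brightest probe set, its representative, unless another is named. In limma, 0 of the 33 members had an adjusted p under 0.05, where the background over all genes was also 0%, and the smallest adjusted p of a member was 0.472. The median difference, induced minus control, was -0.0017 over the members and -0.0030 over all 19775 genes on the log2 scale. The median size of the difference without its sign was 0.030 over the members and 0.075 over all genes, while the median level was 10.14 over the members and 7.07 over all genes. At an unadjusted p under 0.05 stood 3 of the 33 members (9.09%), against 11.2% of all genes. They were PFKFB4 and HK1, lower in the induced arrays, and PGAM1, higher. The 2 groups did not overlap in 14 members (42.4%), against 43.9% of all genes. In 5 of these members the induced arrays were the higher ones and in 9 the lower, against 21.4% and 22.4% of all genes.

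The intervals say how large a change these arrays could have missed. The 95% interval of the difference lay within a 1.3-fold change in either direction for 32 of the 33 members, against 75.3% of all genes. The one exception was PFKFB4. Both shares rest on the brightest probe set of each gene, and the median level was 10.14 over the members and 7.07 over all genes. The model sets the spread partly by intensity, so bright sets tend to get narrower intervals. The part of this in these shares was not tested. Dimmer sets reached beyond the bound for HK2, PFKP, ALDOA, PGK1, PDK1, PDK3, SLC2A3, CA12, EGLN1, P4HA1, P4HA2, ANKRD37 and EPAS1. Examples are a set of HK2 (-0.55 to -0.09) and a set of CA12 (-0.65 to -0.15). The set of ALDOA (0.03 to 0.45) had a mean level of 10.29. The interval reached 0.055 to 0.22 log2 units to either side of the difference over the members. The levels matter here, since differences near the top of the scale of an array can be compressed: 7 members were among the brightest 1% of probe sets, and GAPDH at 14.18 lay near the highest value of any probe set on any array, 14.46. The part of such compression in the small differences was not tested.

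**Figure D1:**
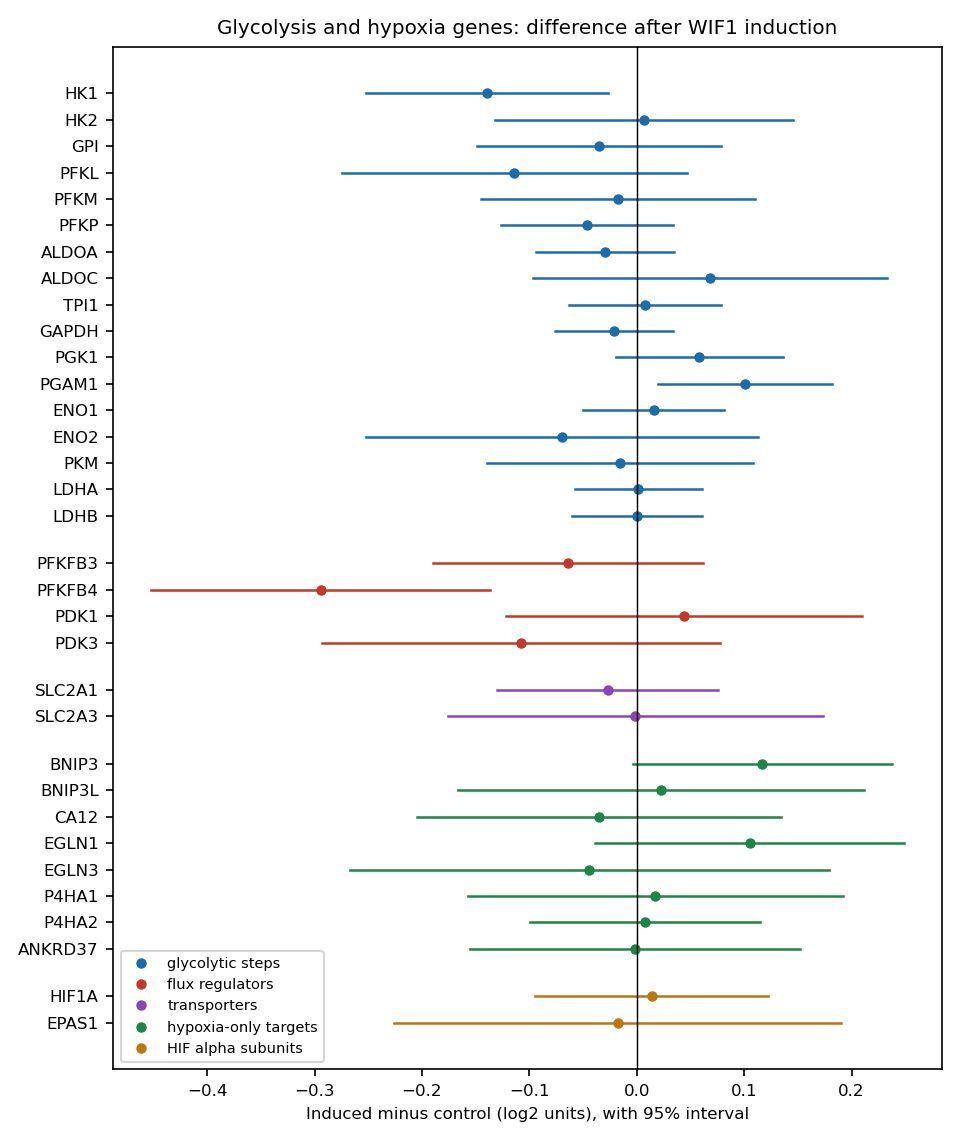
Induced minus control difference (log2 units, points) with its 95% limma interval (lines) for the representative probe set of each of the 33 measured members, coloured by role, from 2 induced and 2 control arrays. The interval of PFKFB4, whose difference is -0.29, is the 1 of 33 that reaches beyond a 1.3-fold change. Like those of HK1 and PGAM1, it does not include 0.

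Array medians of the log2 values were 6.15 and 6.15 in the induced arrays and 6.16 and 6.19 in the controls, and replicates correlated over probe sets at 0.997 in the induced and 0.998 in the control group. The single probe set for WIF1 lay close to the lowest values, at 2.93 and 3.03 in the induced arrays and 2.98 and 2.90 in the controls. The difference was 0.04 (95% interval -0.20 to 0.29). It thus showed no rise of WIF1 mRNA, and that WIF1 was induced rests on the labels alone. Since the construct is not given, it is unknown whether this probe set would read its transcript. Of 12 markers of glial and glioblastoma cells, 9 had a level that reached the median over probe sets (6.16), among them NES, VIM and SOX2, while the astrocyte markers GFAP and AQP4 and the factor SOX9 lay below it. Of the markers of other cell types, 3 of 4 for neurons, 1 of 3 for leukocytes, 2 of 3 for endothelial cells, 0 of 2 for epithelial cells and 3 of 3 for fibroblasts reached that level. Over all genes, 11.2% stood at an unadjusted p under 0.05 in limma. Of the 12 glial and glioblastoma markers 5 did, FABP7 (-0.19), SOX2 (-0.15), S100B (-0.12), AQP4 (-0.25) and EGFR (0.14). So did SYT1 (0.35) among the neuronal and LUM (0.34) among the fibroblast markers. None of the 7 passed adjustment, and their part in the values of the members was not tested.

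Promoter sequence was set beside the differences because the binding motif of HIF is known. RefSeq windows of the 250 bases before the start (build GRCh38.p14) matched 31 of the 33 measured members by symbol, with 54 windows, since some genes have several starts. Only 1 form of the core of the motif was searched for, ACGTG on either strand, and it is called the core below. A window without it may hold another form. The searched form was in 21 of the 54 windows (38.9%), against 18.5% of all 35116 windows of that length. It overlaps the E-box CACGTG, which MYC and USF factors bind. That E-box was in 8 of the 54 windows (14.8%), against 6.34% of all windows. Many members were listed because HIF is known to act on them, so the list itself favours the core. Nearby starts of 1 gene can count the same core more than once, and the windows were not matched for base content. By role, the core was in 14 of 37 windows of glycolytic steps, 3 of 6 of flux regulators, 4 of 7 of hypoxia-only targets, 0 of 1 of transporters and 0 of 3 of the HIF alpha subunits. The 18 members with the core in at least 1 window had a median difference of -0.0002 (range -0.11 to 0.12), and the 13 members without it had a median of -0.02 (range -0.29 to 0.10).

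Below are 4 of these windows, each 5' to 3' on the strand of the gene, with the core in capitals. They were picked after the values were seen, to show the member that differed most (PFKFB4), both hypoxia-only targets with the smallest p (EGLN1 and BNIP3), and a core-rich gene whose difference was 0.00 (LDHA, first of its 2 starts).
PFKFB4, chr3:48556804-48557053, minus strand: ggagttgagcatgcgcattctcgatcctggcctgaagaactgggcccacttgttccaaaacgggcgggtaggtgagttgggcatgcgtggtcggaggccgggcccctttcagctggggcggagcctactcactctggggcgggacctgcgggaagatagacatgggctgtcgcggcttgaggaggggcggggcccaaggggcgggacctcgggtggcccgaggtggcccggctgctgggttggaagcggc
EGLN1, chr1:231422288-231422537, minus strand: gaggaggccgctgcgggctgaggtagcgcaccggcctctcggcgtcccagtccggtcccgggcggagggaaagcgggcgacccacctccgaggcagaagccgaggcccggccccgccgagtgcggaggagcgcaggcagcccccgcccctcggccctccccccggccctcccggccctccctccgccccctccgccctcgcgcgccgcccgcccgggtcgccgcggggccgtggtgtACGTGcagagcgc
BNIP3, chr10:131981924-131982173, minus strand: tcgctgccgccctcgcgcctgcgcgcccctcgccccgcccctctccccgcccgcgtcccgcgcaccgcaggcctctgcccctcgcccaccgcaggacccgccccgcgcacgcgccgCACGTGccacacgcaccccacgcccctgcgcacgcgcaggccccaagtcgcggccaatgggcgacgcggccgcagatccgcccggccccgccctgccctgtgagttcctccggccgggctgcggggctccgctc
LDHA, chr11:18394313-18394562, plus strand: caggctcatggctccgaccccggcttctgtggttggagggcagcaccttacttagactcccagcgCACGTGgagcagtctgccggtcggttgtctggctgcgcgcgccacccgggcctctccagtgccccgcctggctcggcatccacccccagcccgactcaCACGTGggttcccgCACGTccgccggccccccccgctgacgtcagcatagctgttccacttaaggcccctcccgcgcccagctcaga
The PFKFB4 window has 0 matches to ACGTG, and this says only that these letters are not in this window. GCGTG, a form that was not searched for, is in the PFKFB4 window and, on the other strand, in the BNIP3 window. The EGLN1 window has 1 match to ACGTG, which begins 13 bases before the start. The match in the BNIP3 window begins 134 bases before the start and is a full E-box. The LDHA window has 3 stretches, beginning 185, 87 and 73 bases before the start, of which 2 are full E-boxes. The 4 genes differed by -0.29 for PFKFB4, 0.11 for EGLN1, 0.12 for BNIP3 and 0.00 for LDHA.

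The 17 glycolytic steps, from hexokinase to lactate dehydrogenase, had a median difference of -0.02, with a range of -0.14 to 0.10. By sign 8 were higher and 9 lower, which became 11 and 6 after centring each array on its median and 3 and 14 after cyclic loess, another rescaling between arrays. The first step, which traps glucose in the cell as its phosphate, is read by HK1 and HK2. HK1, the widely expressed hexokinase, was at 10.61 and 10.56 in the induced arrays and at 10.68 and 10.77 in the controls. Both induced values lay below both controls, with a difference of -0.14 (SE 0.047, 95% interval -0.25 to -0.03, adjusted p = 0.472). It was -0.093 without the second control array and -0.19 without the first. HK2, the isozyme that hypoxia is known to induce, was at 9.96 and 10.07 in the induced arrays and at 10.05 and 9.96 in the controls. Its groups overlapped and the difference was 0.01 (SE 0.057, adjusted p = 0.982). A dimmer HK2 probe set read 7.45 and 7.40 in the induced arrays, against 7.62 and 7.88 in the controls, a difference of -0.32 (SE 0.095, adjusted p = 0.472), while -0.07 came from the remaining set. The probe sets of HK2 therefore disagreed.

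Phosphofructokinase, the committed step, has 3 subunits, and the brightest probe sets of all 3 were lower by sign, except that centring the arrays turned PFKM to 0.0071. PFKL, the liver-type subunit, differed by -0.11 (SE 0.066, adjusted p = 0.582) with both induced values below both controls, and its second probe set gave -0.10. PFKP, the platelet-type subunit, differed by -0.05, but its second, dim probe set (mean level 4.78) gave 0.17 with both induced values above both controls. PFKM, read by 1 probe set, the muscle-type subunit, differed by -0.02. None of the 3 passed the test. Between hexokinase and phosphofructokinase, GPI, which turns glucose 6-phosphate into fructose 6-phosphate, differed by -0.04.

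In the middle of the pathway, aldolase cleaves the 6-carbon sugar into triose phosphates. ALDOA was at 13.17 and 13.16 in the induced arrays and at 13.21 and 13.18 in the controls (difference -0.03), and ALDOC, the brain-type aldolase, differed by 0.07. A dimmer ALDOA probe set, of the kind marked with an x because its probes may bind other transcripts, gave 10.30 and 10.52 in the induced arrays, against 10.24 and 10.09 in the controls. That is a difference of 0.24 (SE 0.087, adjusted p = 0.476), where the remaining one gave -0.0048. TPI1, which interconverts the triose phosphates, differed by 0.01, with all 3 probe sets higher by sign as deposited and 2 of them at -0.020 and -0.017 after cyclic loess.

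GAPDH, the dehydrogenase often used as a loading control, was at 14.16 and 14.18 in the induced arrays and at 14.20 and 14.18 in the controls. The difference was -0.02 (SE 0.023, 95% interval -0.08 to 0.03), and its other probe sets gave -0.06 (95% interval -0.12 to -0.0066, unadjusted p 0.033, adjusted p = 0.480 in limma) and -0.01. All 3 were lower by sign as deposited, with no overlap between the groups, and centring the arrays turned the brightest to 0.0033. The 3 control sets of GAPDH, which lie along its transcript and were kept out of the tests, differed by -0.02 at the 5' end, -0.02 in the middle and 0.00 at the 3' end. All of these sets lie near the top of the scale, so small differences in GAPDH may be understated.

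The steps after GAPDH include the 1 glycolytic step whose representative probe set was higher at an unadjusted p under 0.05. This was PGAM1, the phosphoglycerate mutase, at 12.32 and 12.31 in the induced arrays and at 12.25 and 12.19 in the controls. Both induced values lay above both controls, with a difference of 0.10 (SE 0.034, 95% interval 0.02 to 0.18, adjusted p = 0.472), that is 1.07-fold. PGK1, the kinase that makes the first ATP of the pathway, differed by 0.06 (SE 0.032, adjusted p = 0.567), but its 6 probe sets ran from -0.21 to 0.09, 3 higher and 3 lower. ENO1, the main enolase, differed by 0.02, with -0.14 to 0.07 on its other probe sets, and ENO2, the neuronal enolase, by -0.07. PKM, the pyruvate kinase, differed by -0.02, with 0.07 on its second probe set.

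Lactate dehydrogenase closes the route to lactate, and neither subunit differed beyond the spread of its replicates. LDHA, the subunit that favours lactate and a standard HIF target, was at 13.56 and 13.57 in the induced arrays and at 13.58 and 13.55 in the controls. LDHB, the subunit that favours pyruvate, was at 13.33 and 13.35 in the induced arrays and at 13.35 and 13.34 in the controls. Both differences were 0.00, with 95% intervals of -0.06 to 0.06 for each, a range of 0.961-fold to 1.04-fold for LDHA.

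**Figure D2:**
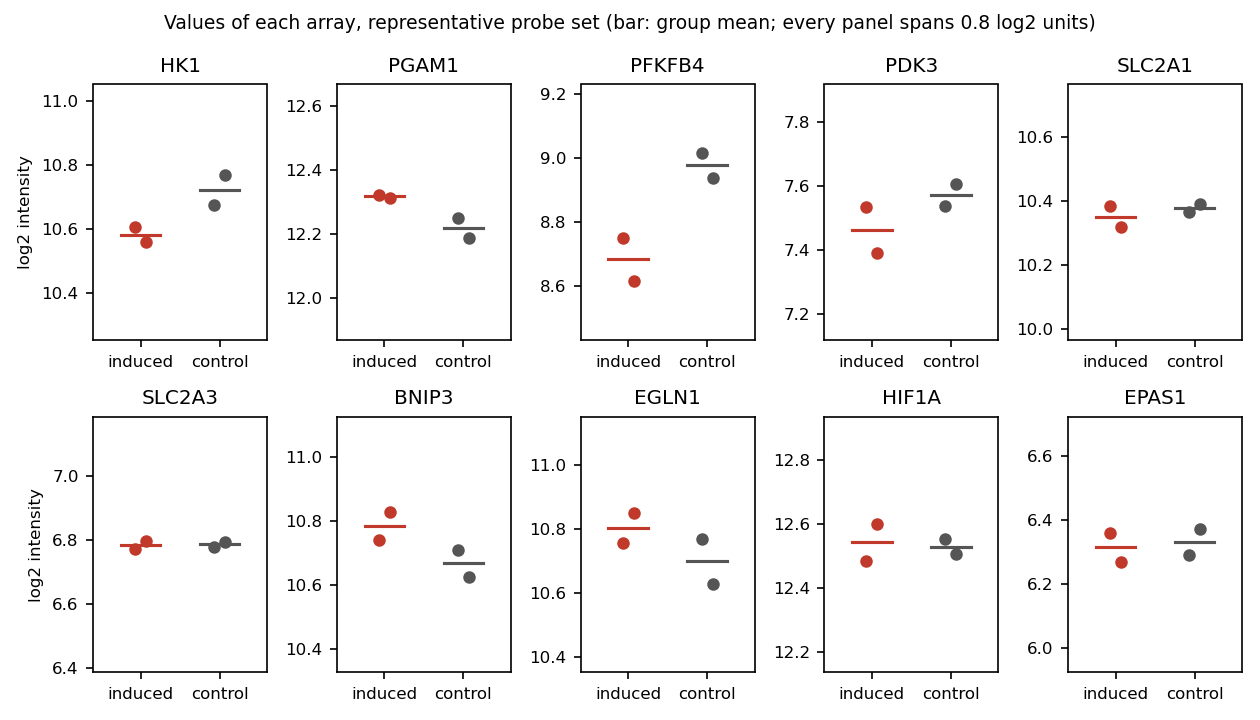
Log2 intensity of the representative probe set on each array (points) with group means (bars) for the 10 members described by rule, induced left and control right. The groups are apart for HK1, PGAM1, PFKFB4 and BNIP3, and barely so for PDK3, whose nearest values are both 7.54, while they overlap for SLC2A1, SLC2A3, EGLN1, HIF1A and EPAS1.

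The 4 flux regulators set how fast sugar passes through and where pyruvate goes, and their median difference was -0.09. PFKFB4 makes and breaks fructose 2,6-bisphosphate, the activator of phosphofructokinase, and is a known HIF target. It was at 8.75 and 8.62 in the induced arrays and at 9.02 and 8.94 in the controls. The groups did not overlap, and the difference was -0.29 (SE 0.065, 95% interval -0.45 to -0.14), that is 0.815-fold, at an adjusted p of 0.472. Only 1.28% of all genes had a lower difference. Its second probe set read 6.72 and 6.78 in the induced arrays, against 6.95 and 6.84 in the controls, a difference of -0.14 (SE 0.079, adjusted p = 0.569), so both probe sets pointed the same way.

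PFKFB3, a related isozyme with high kinase activity, differed by -0.06 (SE 0.052, adjusted p = 0.687). The pyruvate dehydrogenase kinases act in the mitochondrial matrix, where they inhibit pyruvate dehydrogenase and so slow the conversion of pyruvate to acetyl-CoA. PDK3 was at 7.54 and 7.39 in the induced arrays and at 7.54 and 7.61 in the controls. The difference was -0.11 (SE 0.077, adjusted p = 0.646), and 4 of its 5 probe sets were lower by sign, from -0.14 to 0.01. One array weighed heavily on PDK3, which differed by -0.036 without the second induced array and by -0.18 without the first. PDK1, the kinase best known as a HIF1A target, differed by 0.04 (SE 0.068, adjusted p = 0.852), with 0.08 and -0.08 on its other probe sets. By sign 1 regulator was higher and 3 were lower, as also after both rescalings.

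Of the transporters, only the glucose carriers were read. SLC2A1 (GLUT1) was at 10.38 and 10.32 in the induced arrays and at 10.37 and 10.39 in the controls, a difference of -0.03 (SE 0.043, 95% interval -0.13 to 0.08). SLC2A3 (GLUT3), the high-affinity carrier of neurons, was at 6.77 and 6.80 in the induced arrays and at 6.78 and 6.79 in the controls, a difference of -0.0012 (SE 0.072, 95% interval -0.18 to 0.17). The groups overlapped for both carriers. The other probe sets of SLC2A3 gave -0.17 and 0.07.

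The 8 measured hypoxia-only targets respond to HIF but take no part in glycolysis. Their median difference was 0.01, with 5 higher and 3 lower by sign (6 and 2 after either rescaling). By the brightest probe set none had an unadjusted p under 0.05 in limma, against 11.2% of all genes. Some dimmer sets of EGLN1, CA12 and ANKRD37 did. BNIP3, a mitochondrial protein that triggers mitophagy, was at 10.74 and 10.83 in the induced arrays and at 10.71 and 10.63 in the controls. The induced values lay just above the controls, with a difference of 0.12 (SE 0.050, 95% interval -0.0039 to 0.24, adjusted p = 0.504), but its second probe set gave -0.06 and the mean of both gave 0.028. Without the second induced array BNIP3 differed by 0.072, and without the second control array by 0.075. Without the first array of either group it differed by 0.16. Its relative BNIP3L differed by 0.02.

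EGLN1 (PHD2), the main oxygen sensor that marks HIF alpha for decay and is itself a HIF target, was at 10.76 and 10.85 in the induced arrays and at 10.77 and 10.63 in the controls. The groups overlapped, with a difference of 0.11 (SE 0.059, adjusted p = 0.576). It was 0.035 without the second control array, 0.059 without the second induced array and 0.18 without the first control array. The other probe sets of EGLN1 gave 0.15, -0.02 and -0.20, and the mean of all 4 gave 0.010. EGLN3, the inducible prolyl hydroxylase, differed by -0.04 (SE 0.092), with the widest interval of any member, -0.27 to 0.18.

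P4HA1 and P4HA2, the collagen prolyl hydroxylases, differed by 0.02 and 0.01, with 0.21 on a dim probe set of P4HA1 and -0.02 and -0.19 on the others of P4HA2. ANKRD37, an ankyrin repeat protein and common hypoxia marker, differed by -0.0017, while its dimmer probe set read 5.58 and 5.42 in the induced arrays, against 5.75 and 5.94 in the controls (difference -0.34, SE 0.11, adjusted p = 0.472). CA12, a carbonic anhydrase at the cell surface, differed by -0.04 by its brightest probe set. Its 7 probe sets disagreed most of all members, from -0.40 (6.11 and 5.99 in the induced arrays, 6.35 and 6.56 in the controls) to 0.32 (5.95 and 5.88 in the induced arrays, 5.74 and 5.44 in the controls).

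The HIF alpha subunits differed little. HIF1A was at 12.48 and 12.60 in the induced arrays and at 12.55 and 12.50 in the controls, a difference of 0.01 (SE 0.045, 95% interval -0.09 to 0.12). EPAS1 was at 6.36 and 6.27 in the induced arrays and at 6.29 and 6.37 in the controls, a difference of -0.02 (SE 0.086, 95% interval -0.23 to 0.19). The 2 dimmer EPAS1 probe sets gave -0.12 and 0.20, so no direction can be given for this gene.

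Over all 81 probe sets of the members, 10 (12.3%) had an unadjusted p under 0.05, against 10% of all 54613 probe sets. Of the 81, 4 were higher and 6 lower at that threshold, against 4.75% higher and 5.27% lower of all probe sets, and 7 of the 10 were not the brightest probe set of their gene. The largest differences belonged to probe sets of HK2, ANKRD37 and CA12 with a mean level under 8, and the brightest probe sets of the same genes differed by 0.01, -0.0017 and -0.04. Which transcript forms these dimmer sets read is not known here.

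**Figure D3:**
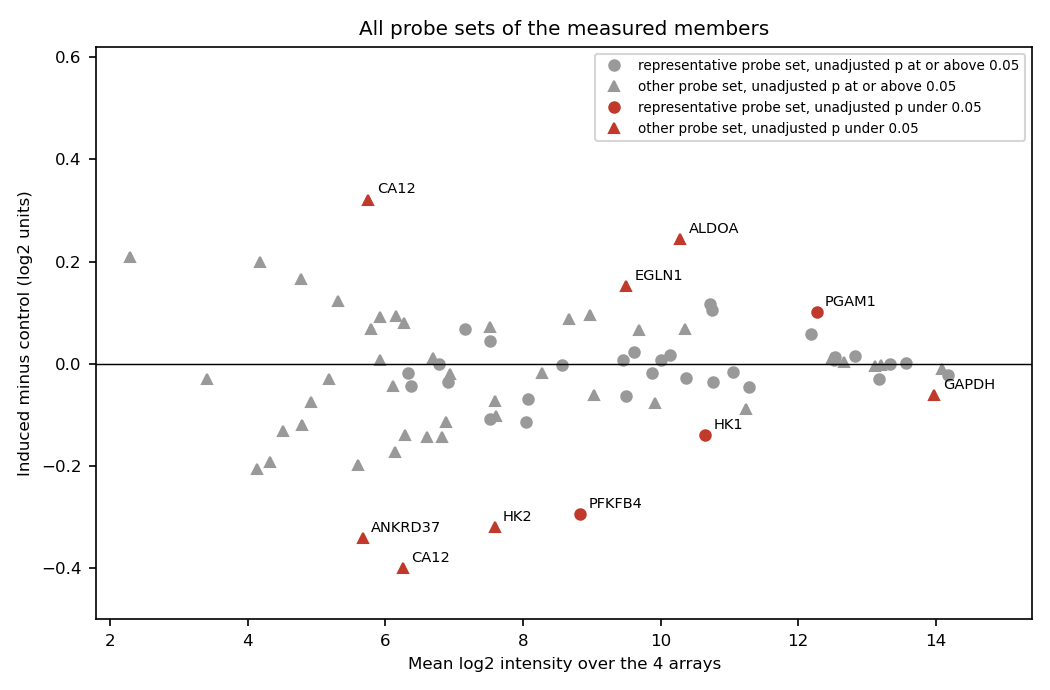
Induced minus control difference (log2 units) against mean log2 intensity over the 4 arrays for all 81 probe sets of the members. Circles are representative probe sets, triangles are others, and red marks an unadjusted p under 0.05. The spread narrows with intensity, and 7 of the 10 red points are triangles.

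Other genes of the pathway were taken from 4 lists. Of 29 measured further hypoxia targets, 4 had an unadjusted p under 0.05 with a higher value and 2 with a lower one, against 6.48% higher and 4.73% lower of all genes, and none passed adjustment. The angiogenic factor VEGFA differed by 0.42 (SE 0.059, adjusted p = 0.349) on 1 of its 4 probe sets, with 0.02 to 0.13 on the others. ADM, the vasodilator peptide adrenomedullin, had 11.79 and 11.84 in the induced arrays, against 11.65 and 11.65 in the controls (difference 0.17, SE 0.034, adjusted p = 0.472). MXI1, a MYC antagonist, had 10.18 and 10.04 in the induced arrays, against 10.35 and 10.28 in the controls (difference -0.20, SE 0.059, adjusted p = 0.472). The median over this list was 0.02.

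Of 14 regulators of HIF, 1 was higher and 2 were lower at that threshold (21.4% together, against 11.2% of all genes). CREBBP, a coactivator that HIF recruits, differed by 0.32 (SE 0.056, adjusted p = 0.418), with -0.18 to 0.03 on its other probe sets. CUL2, the scaffold of the ligase that destroys HIF alpha, differed by -0.19 on 1 probe set and 0.05 on the other. ARNT, the partner of HIF alpha, differed by -0.15, with -0.16 to 0.11 on its other probe sets.

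Of 26 other glycolytic isozymes and enzymes of pyruvate entry, 1 was higher and 2 were lower at that threshold. Together these were 11.5%, against 11.2% of all genes, and the median difference of the list was -0.01. TIGAR, a p53 target that lowers fructose 2,6-bisphosphate, differed by 0.11 (SE 0.042, adjusted p = 0.489). PDHA1, the catalytic subunit of pyruvate dehydrogenase, differed by -0.13 (SE 0.053, adjusted p = 0.496), with -0.02 to 0.13 on its other probe sets. PGK2, the testis isozyme of phosphoglycerate kinase, differed by -0.23.

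The pentose phosphate pathway branches off at glucose 6-phosphate. Of 7 of its genes, 0 were higher and 1 was lower at that threshold (14.3%, against 11.2% of all genes). This was the transketolase TKT, with 12.15 and 12.17 in the induced arrays, against 12.24 and 12.32 in the controls (difference -0.12, SE 0.037, adjusted p = 0.472). Its other probe sets gave -0.17 and -0.14, so all 3 had the same sign, also after both rescalings. The epimerase RPE differed by 0.12, with -0.18 to 0.04 on its other probe sets. PGD, the phosphogluconate dehydrogenase, differed by -0.11, with 0.0022 and 0.028 on its others. As deposited, neither gene had 1 sign over its probe sets.

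**Figure D4:**
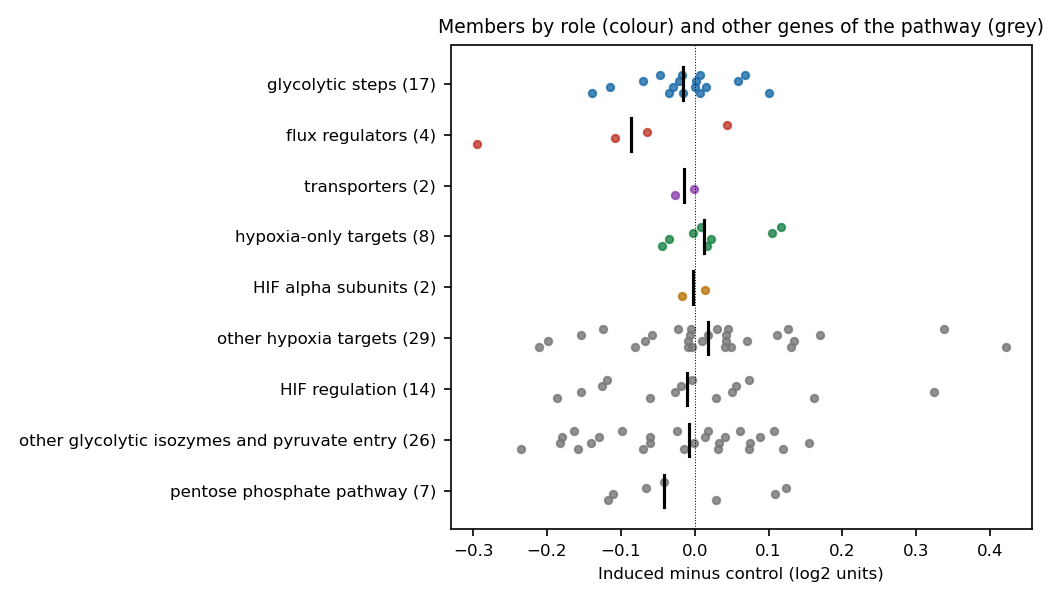
Induced minus control difference (log2 units) of each gene's representative probe set for the members by role (coloured) and for the other pathway lists (grey), with the number of genes in brackets and black bars at the medians. Every median lies between -0.09 and 0.02, and the widest spread is among the further hypoxia targets, up to 0.42 for VEGFA.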

How the data were processed

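RNA of 2 induced and 2 control cultures was hybridised to 1 array each. The deposited values are log2 intensities per probe set, and the submitters' processing notes name RMA and the affy package as the authors' tools. RMA equalises the distributions of the arrays, so a shift shared by most genes would not be seen. Scanner files were not used. Of 54675 rows, 62 control sets were kept out of the tests. The platform annotation gives 41091 of the others 1 symbol, 1801 several and 11721 none. Each gene is represented by the brightest of its probe sets on average.

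Groups came from the sample titles. The test was limma's (version 3.58.1, R 4.3.3; lmFit, eBayes with an intensity trend, 2-sided, 6.27 degrees of freedom), with Benjamini-Hochberg adjustment over 54613 probe sets and a threshold of 0.05. Intervals and standard errors are of that model, and the 2 arrays per group limit the precision. The fit was tested on simulated data.

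The members and lists were chosen with earlier results of these data known. Members named by rule are those with an unadjusted p under 0.05 and the 2 of smallest p in each role, and from each other list up to 3 genes of smallest p with a mean at or above 6.16. Other members are given for completeness. Alternatives were a replicate block, other eBayes settings, a filter on dim probe sets, rescaling, other choices of probe set, a threshold of 0.1 and leaving out each array.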

Additional observations from a re-analysis of the deposited data

Results flagged for a closer look

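A probe set outside the comparison, shared by SLC2A3 and its close relative SLC2A14, read 6.97 and 6.94 in the induced arrays and 6.80 and 6.70 in the controls. It is listed because the gap between the groups was wider than the gap inside either of them, with the induced arrays higher by a difference of 0.20 (SE 0.077, adjusted p = 0.484). The same held, in the opposite direction, for the other probe set shared by both genes. That set read 5.81 and 5.88 in the induced arrays and 6.18 and 6.16 in the controls, a difference of -0.32 (SE 0.086, adjusted p = 0.472). Groups that did not overlap, a looser condition than the one used for this listing, were seen in 43.9% of all genes. The 3 probe sets named for SLC2A3 alone gave -0.17 to 0.07.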

How the results depend on the processing

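No member was called under any of the 13 alternatives. Over the 12 that give a difference, PFKFB4 ranged from -0.36 to -0.22, HK1 from -0.19 to -0.093 and PGAM1 from 0.069 to 0.13. The choice of probe sets without an s or x suffix kept the main probe set of all 3 genes, so it repeats the main result for them. Without the trend, the unadjusted limma p was 0.015 for PFKFB4, 0.11 for HK1 and 0.18 for PGAM1. The count of members at an unadjusted p under 0.05, 3 as reported, was 1 without the trend and 1 to 4 on leaving out 1 array, with 1 without the second induced or the second control array. With the replicate number as a block, 0 probe sets and 0 members were called and 2 members had an unadjusted p under 0.05. The labels give no shared origin for equal numbers, and deviations of same-numbered arrays correlated at 0.056. Probe sets called numbered 2 with robust eBayes, 5 after centring, 11 after cyclic loess and 2 at a threshold of 0.1. The split of members by sign, 15 higher and 18 lower, became 21 and 12 after centring and 12 and 21 after cyclic loess, so it carries no direction. Centring arrays gave medians of 0.023 for all members and 0.022 for all genes. By role it gave 0.0088 for glycolytic steps, -0.061 for flux regulators, 0.010 for transporters, 0.037 for hypoxia-only targets and 0.023 for the HIF alpha subunits. It turned SLC2A3 to 0.023 and EPAS1 to 0.0070. Cyclic loess gave -0.020 for all members, 0.0055 for all genes and -0.033 for glycolytic steps. It turned SLC2A3 to 0.025, HIF1A to -0.014 and EPAS1 to 0.0055. Averaging probe sets gave -0.015 for all members, -0.035 for transporters and 0.017 for the HIF alpha subunits, with EPAS1 at 0.020. Probe sets without an s or x suffix gave -0.016 for all members and 0.052 for hypoxia-only targets. Leaving out 1 array gave -0.013 to -0.00040 for all members and likewise -0.013 to -0.00040 for glycolytic steps. It gave -0.059 to 0.0049 for SLC2A1, -0.014 to 0.012 for SLC2A3, -0.045 to 0.072 for HIF1A and -0.064 to 0.029 for EPAS1. Centring adds the same amount to every difference by construction. The cause of the other shifts was not tested.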
